A study of Homo sapiens with 21 samples.

Results

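The open and the acetylated chromatin of A375-GFP were compared, using the ATAC and histone H3 K27ac region lists of this melanoma line. Every region on the autosomes and the X chromosome was taken, 118398 ATAC and 139985 K27ac regions, which together are 258383 of the 1120474 regions used from the 15 lists of the series. An ATAC region that overlapped a K27ac region by at least 1 bp was called open and acetylated, any other ATAC region open only, and a K27ac region without an ATAC region acetylated only. The series profiled 4 human melanoma lines (A375, 501mel, SKMEL-147 and SKMEL-5) in a study where HOXD13, a homeobox transcription factor, was silenced or overexpressed. Sample names with a hairpin, GFP or HOXD13-HA occur only for A375. A375 is an established line from a skin melanoma that carries an activating BRAF mutation. The label GFP stands in the sample names and is not explained further. Growth lasted 72 h for all libraries, and doxycycline at 1 µg/ml was used to switch on the constructs in some of them, but which libraries received it is not given. The 2 A375-GFP libraries are 1 ATAC and 1 K27ac library without replicates. The other libraries set beside them are the 2 K27ac replicates of A375-shNTC, a hairpin line whose name is read as the non-targeting control, ATAC and K27ac of 501mel, SKMEL-5 and SKMEL-147, CTCF of 501mel and SKMEL-5, and A375-HOXD13-HA, each 1 library. Whether the shNTC replicates came from separate cultures, and whether ChIP-seq or CUT&Tag gave a K27ac list, is not stated.

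ATAC-seq uses a transposase that cuts where nucleosomes are missing or loose, so its regions mark promoters, enhancers and insulator sites. Acetylation of lysine 27 of histone H3 is placed by the p300 and CBP enzymes on nucleosomes beside active promoters and enhancers, and long acetylated stretches often lie at genes that define a cell's identity. An element can be open without this mark, as at many CTCF sites or poised elements, and the mark can spread over nucleosomes that are not accessible.

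The starts of genes in the 4 possible states show how the marks relate to promoter sequence, and starts of leading genes are printed for that reason. Of the 19974 protein-coding genes, 15812 have a start in the RefSeq promoter table (GRCh38.p14), which gives 300 bases per start, 250 before it and 50 from it on. Genes were taken by K27ac length within 50 kb, described further on. Capitals mark CG dinucleotides, and each sequence reads 5′ to 3′ on the strand of the gene. The starts of SH3PXD2A (chr10:103855527-103855826, minus strand) and NFATC2 (chr20:51562790-51563089, minus strand) were open and acetylated. Those of KIRREL3 (chr11:127003345-127003644, minus strand) and RNF216 (chr7:5781614-5781913, minus strand) were open only. The start of DQX1 (chr2:74526182-74526481, minus strand) was acetylated only. The listed starts of RAD51B (chr14:67823291-67823590, plus strand) and MARCHF10 (chr17:62806591-62806890, minus strand) had neither mark within 1 kb. The last 2 lie 3762 and 1674 bp inside the annotated gene, so a further start of these genes is not described by them.
SH3PXD2A: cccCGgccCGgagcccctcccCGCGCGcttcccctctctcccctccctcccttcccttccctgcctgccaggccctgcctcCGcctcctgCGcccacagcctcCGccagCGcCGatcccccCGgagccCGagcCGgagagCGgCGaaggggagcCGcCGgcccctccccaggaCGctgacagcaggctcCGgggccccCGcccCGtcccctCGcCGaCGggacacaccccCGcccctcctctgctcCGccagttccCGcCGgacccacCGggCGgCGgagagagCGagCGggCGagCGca
NFATC2: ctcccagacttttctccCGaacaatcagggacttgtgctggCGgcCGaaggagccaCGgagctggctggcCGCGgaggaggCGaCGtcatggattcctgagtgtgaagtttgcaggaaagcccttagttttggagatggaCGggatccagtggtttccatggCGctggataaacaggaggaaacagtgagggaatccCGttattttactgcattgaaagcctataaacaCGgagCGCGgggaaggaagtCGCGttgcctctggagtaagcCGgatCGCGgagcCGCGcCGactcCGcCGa
KIRREL3: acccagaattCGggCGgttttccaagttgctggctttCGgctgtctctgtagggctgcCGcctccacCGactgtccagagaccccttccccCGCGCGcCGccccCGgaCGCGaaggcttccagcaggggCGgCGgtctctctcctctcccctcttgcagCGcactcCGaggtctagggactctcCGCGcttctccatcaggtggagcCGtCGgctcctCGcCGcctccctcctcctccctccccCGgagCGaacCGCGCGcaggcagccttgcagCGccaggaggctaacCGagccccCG
RNF216: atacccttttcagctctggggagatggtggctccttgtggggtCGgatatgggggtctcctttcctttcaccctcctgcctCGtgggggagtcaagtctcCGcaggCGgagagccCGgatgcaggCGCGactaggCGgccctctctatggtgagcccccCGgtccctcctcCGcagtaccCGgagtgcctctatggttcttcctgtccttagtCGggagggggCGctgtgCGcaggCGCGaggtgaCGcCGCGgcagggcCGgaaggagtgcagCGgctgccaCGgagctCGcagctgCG
DQX1: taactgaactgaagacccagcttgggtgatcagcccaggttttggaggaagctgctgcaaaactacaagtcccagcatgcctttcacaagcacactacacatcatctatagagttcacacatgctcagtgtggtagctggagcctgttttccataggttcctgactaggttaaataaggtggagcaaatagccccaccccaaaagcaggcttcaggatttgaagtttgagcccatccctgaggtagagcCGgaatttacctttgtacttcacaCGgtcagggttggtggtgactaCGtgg
RAD51B: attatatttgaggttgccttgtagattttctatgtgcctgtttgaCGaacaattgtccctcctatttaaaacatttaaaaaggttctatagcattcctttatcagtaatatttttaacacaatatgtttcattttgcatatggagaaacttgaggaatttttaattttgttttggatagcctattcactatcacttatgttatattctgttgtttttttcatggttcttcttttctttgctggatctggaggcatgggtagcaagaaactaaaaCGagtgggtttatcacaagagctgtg
MARCHF10: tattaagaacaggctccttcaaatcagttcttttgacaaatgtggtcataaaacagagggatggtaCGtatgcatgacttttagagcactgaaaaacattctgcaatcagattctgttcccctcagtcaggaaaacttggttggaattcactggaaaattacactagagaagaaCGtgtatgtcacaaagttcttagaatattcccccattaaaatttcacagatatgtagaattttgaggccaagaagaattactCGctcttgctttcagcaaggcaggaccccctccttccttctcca
The counts of CG in these 300 bases were 35 in SH3PXD2A, 24 in NFATC2, 30 in KIRREL3 and 24 in RNF216, against 3 in DQX1, 2 in RAD51B and 3 in MARCHF10. The same contrast held over all starts. The median count was 26 CG at the 11004 open and acetylated starts and 23 at the 4964 open only starts. It was 5 at the 598 acetylated only starts and 4 at the 5446 starts with neither mark. The median ratio of observed to expected CG was 0.843, 0.758, 0.266 and 0.268 in that order, and the median GC content was 65.3, 65.0, 56.3 and 50.3%. By these medians the open starts were rich in CG whether or not they were acetylated, and the starts that were not open were poor in it.

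Short motifs were counted on both strands of these windows. None of them contains another. The GC box GGGCGG, the letters bound by Sp1, was in 69.9% of open and acetylated and 64.5% of open only starts, in 27.3 and 24.3% of acetylated only and neither starts, and in 56.3% of all 22012 starts. The ETS motif CCGGAAGT separated the 2 open states more, with 8.82% (95% Wilson interval 8.31 to 9.37) of open and acetylated against 3.16% (2.71 to 3.69) of open only starts, beside 5.32% of all. The motif of NRF1 was in 2.24 and 1.27%, beside 1.49% of all, and the cyclic AMP response element TGACGTCA in 3.10 and 2.01%, beside 2.25%. The TATA box letters TATAAA ran the other way, with 5.24 and 6.87% of the open states, 10.5% of acetylated only, 20.3% of neither and 9.49% of all starts. The AP-1 letters TGANTCA were in 5.17, 5.02, 8.86 and 8.89% in the same order (6.16% of all), and the E-box CATGTG, one of the forms bound by MITF, in 6.62, 7.29, 14.4 and 14.6% (8.96%). The TEAD letters GGAATG were in 10.9, 11.4, 17.7 and 15.2% (12.2%), and CCAAT differed little, with 35.0, 33.3, 30.4 and 35.8% (34.7%). A match describes letters only, and base composition differs between the states, so motifs rich in CG and motifs poor in it cannot be told apart from the CG counts above. All intervals given here cover counting error only.

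Most regions of either kind did not overlap the other. Of the ATAC regions, 44174 or 37.3% (37.0 to 37.6) were acetylated and 74224 or 62.7% were open only. Of the K27ac regions, 50418 or 36.0% (35.8 to 36.3) were open and 89567 or 64.0% were acetylated only. In length, 24.7 Mb were covered by both, which is 31.1% of the 79.4 Mb of ATAC and 23.5% of the 105 Mb of K27ac regions. Joined into 204974 stretches, 20.1% held both marks, 36.2% ATAC alone and 43.7% K27ac alone. These shares turned with the authors' threshold. With −log10 q of at least 10 in both lists, 25.0% of ATAC regions were acetylated and 75.5% of K27ac regions were open. The lists then held 81283 ATAC and 28370 K27ac regions, so most of a much shorter K27ac list was open.

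Regions with both marks were wider and stronger than those with one. The median width was 808 bp for acetylated against 493 bp for open only ATAC regions, and 798 bp for open against 344 bp for acetylated only K27ac regions. The authors' fold, the height of a summit over the caller's background, had medians of 8.43 and 6.17 in the ATAC list and 4.91 and 3.81 in the K27ac list. A −log10 q of at least 10 was reached by 83.4% of acetylated and 59.9% of open only ATAC regions. In the K27ac list it was reached by 45.2% of open and 6.25% of acetylated only regions. Acetylated only regions are thus for the most part short and near the caller's threshold, while most open only regions are not.

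Each list was cut into 10 equal classes by the authors' fold, and the overlap was not even over them. In the K27ac list it was 34.3% in class 1, the lowest, 19.3% in class 4, 59.9% in class 9 and 89.1% (88.6 to 89.6) in class 10. In the ATAC list it was 32.9% in class 1, 23.0% in class 2, 53.1% in class 9 and 49.7% (48.8 to 50.6) in class 10. The K27ac class of highest fold was therefore mostly at open chromatin. In the ATAC class of highest fold, about as many regions lacked acetylation as had it. By width the overlap rose through every class of both lists, from 14.5 to 77.4% of ATAC and from 14.8 to 82.4% of K27ac regions. A wider region touches another by 1 bp more easily, and with windows of 500 bp at the summits 28.6% of ATAC and 26.5% of K27ac regions overlapped.

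**Figure D1:**
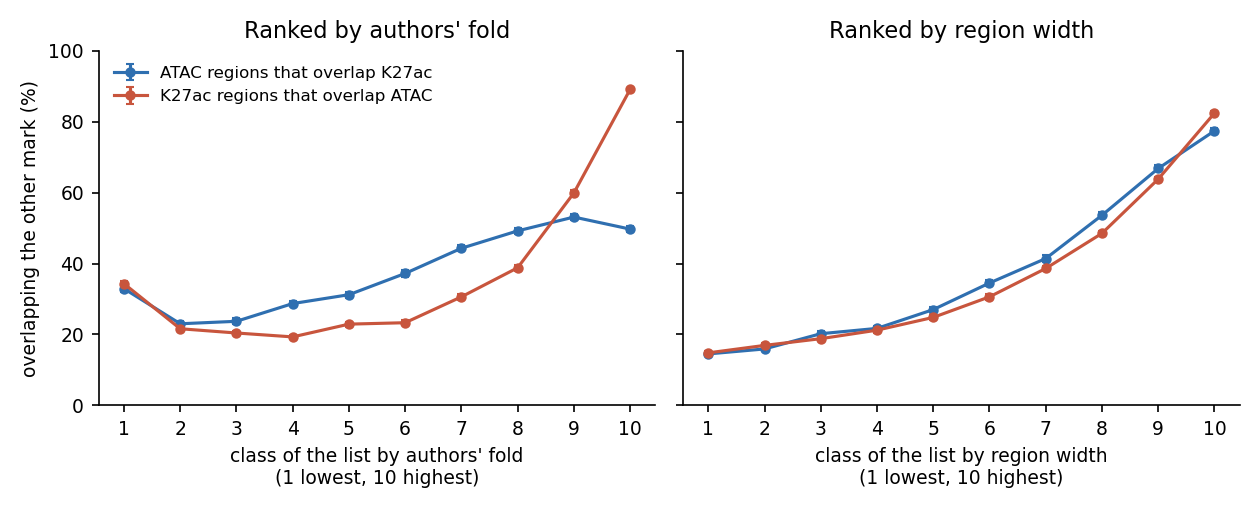
Share of A375-GFP ATAC regions that overlap K27ac and of K27ac regions that overlap ATAC (y axis, percent), in 10 equal classes of each list ranked by the authors' fold (left) or by width (right). Points are shares and bars are 95% Wilson intervals, mostly smaller than the points; the strongest K27ac class by fold reaches 89.1% and the strongest ATAC class 49.7%.

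The 2 single-mark classes lay at different distances from the other mark. Acetylated only regions were close to open chromatin, with a median gap of 2.64 kb to the nearest ATAC region, 25.5% within 1 kb, 68.3% within 5 kb and 99.7% within 50 kb. Open only regions stood farther off, with a median gap of 25.7 kb to the nearest K27ac region, 9.36% within 1 kb and 64.4% within 50 kb. Allowing a gap of 500 bp raised the acetylated share of ATAC regions to 41.5% and the open share of K27ac regions to 45.6%. Acetylated only regions thus lay mostly within a few kb of an open site, and open only regions mostly farther from the mark.

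Within shared chromatin, 94.9% of the open K27ac regions held a single ATAC region, 5.13% held 2 or more, and the most in any was 8. ATAC covered a median of 49.7% of such a K27ac region. The K27ac summit lay inside an ATAC region in 69.0% of cases, at a median distance of 341 bp (quartiles 171 and 549) from the nearest ATAC summit. It lay within 100 bp of it in 14.3% and between 100 and 500 bp in 55.8%. The share of K27ac summits inside an ATAC region fell with the width of the K27ac region, from 77.9% below 500 bp over 70.0, 64.6 and 57.4% to 49.8% of those of 5000 bp and more. The strongest acetylation of a broad domain was thus as often beside the open sites as within them.

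Distance to genes separated the classes. Of open and acetylated ATAC regions, 23.0% (22.7 to 23.4) had their midpoint within 2 kb of a gene start, 42.5% lay elsewhere in a gene, 18.6% within 50 kb of a gene and 15.8% farther away. Open only regions were less often near starts and more often far from genes, with 9.35% (9.14 to 9.56), 37.1, 26.2 and 27.4%. Acetylated only regions were mainly inside genes, with 6.79% (6.63 to 6.96) near starts, 73.6% elsewhere in a gene, 12.5% within 50 kb and 7.09% farther away. The order of the single-mark classes near starts depended on what counts as near. Within 1 kb it was 7.37% of open only and 2.52% of acetylated only regions, and within 5 kb 13.8 and 17.8%. For 4162 genes without a listed start both gene ends were used.

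**Figure D2:**
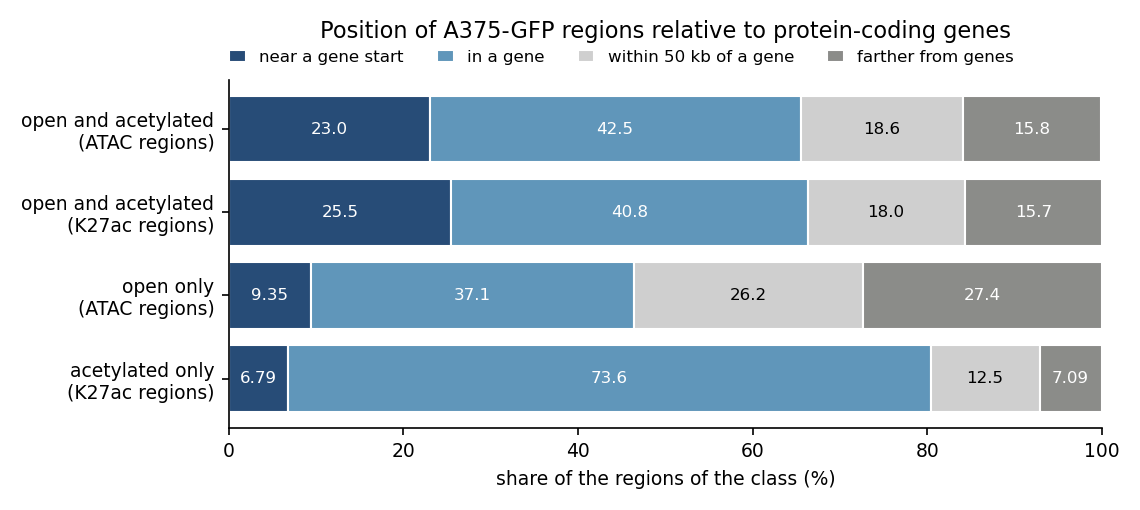
Position of the A375-GFP regions of each class relative to 19974 protein-coding genes (x axis, percent of the class; each bar is 1 class and list, each colour a position). Acetylated only regions lie inside genes away from starts in 73.6% of cases, against 37.1% of open only regions.

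Seen from the position, 59.5% (58.7 to 60.2) of ATAC regions near a start were acetylated, 40.5% of those elsewhere in genes, 29.8% of those within 50 kb of a gene and 25.6% of those farther off. The open share of K27ac regions had another order, 67.8% near starts, 23.8% (23.5 to 24.1) elsewhere in genes, 44.7% within 50 kb and 55.5% farther off. Acetylation outside genes was thus more often at open chromatin than acetylation inside genes. Open and acetylated ATAC regions near starts were the widest and strongest set, with a median width of 1162 bp and a median fold of 10.2. Acetylated only regions had median folds of 3.58 to 3.81 at all 4 positions.

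Acetylated only regions were dense in the bodies of genes whose start carried both marks. Away from starts, there were 89.7 per Mb of gene body in the 8392 genes with an open and acetylated start, 48989 regions in 546 Mb. There were 14.5 per Mb in the 3582 genes with an open only start and 10.0 per Mb in the 3584 genes with neither. The 254 genes with an acetylated only start, 6.17 Mb in all, had 90.8 per Mb. Open K27ac regions were also denser behind acetylated starts, with 22.6 per Mb behind open and acetylated and 37.6 behind acetylated only starts. They had 9.34 per Mb behind open only starts and 9.20 behind starts with neither mark. Open only regions did not follow the start in this way. They had 18.3 per Mb behind open and acetylated starts, 24.7 behind open only, 31.0 behind acetylated only and 24.8 behind starts with neither mark. An ATAC region that meets K27ac leaves the open only class, so the density of that class is not independent of K27ac. The density of acetylated only regions behind open and acetylated starts was 6.19 times that behind open only starts. It was 7.39 times when regions within 1 kb of an ATAC region were left out and 8.00 times with −log10 q of at least 10. With the start's acetylation taken from the shNTC replicates, which had no part in the classes, genes open in A375-GFP and acetylated in both replicates held 83.7 per Mb and those acetylated in neither 11.9. Of the 65920 acetylated only regions in genes away from starts, 27068 (41.1%) lay in the 766 genes (3.83%) that held 20 or more of them. Long genes have room for more, and these had a median length of 134 kb against 24.2 kb over all genes and made up 11.6% of all gene body. CDH13, a cadherin anchored in the membrane by a lipid, held the most with 181 in 1174 kb.

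How far the acetylated only regions lay from open chromatin went with how often shNTC listed them. Of the 22829 within 1 kb of an ATAC region, 52.3% lay in genes away from starts and 43.8% were listed in both shNTC replicates. Of the 38307 at 1 to 5 kb it was 74.4 and 20.5%, and of the 28431 farther than 5 kb 89.7 and 12.2%. By strength, 20.9% of the weakest of 10 classes and 62.5% of the strongest were in both replicates.

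The other libraries describe the classes with data that did not define them. A region counts as listed where it overlaps a region of the other library by at least 1 bp. The median width was 808 bp for open and acetylated ATAC, 493 bp for open only and 344 bp for acetylated only regions. A wider region overlaps another more easily, and the part of width in the differences between classes in these libraries was not tested. Open and acetylated ATAC regions were listed in 85.4 and 83.9% in the K27ac lists of shNTC replicates 1 and 2, and open and acetylated K27ac regions in 84.6 and 83.1%. Open only regions were listed in 20.9 and 19.2%. Acetylated only regions were listed in 30.3 and 28.2%, and 65.4% of them were in neither replicate. Those with −log10 q of at least 10 were listed in 80.1% in replicate 1. Low strength and absence from shNTC thus went together in this class, and whether these regions lack acetylation in shNTC or fall under the threshold there was not tested.

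In the other melanoma lines, the ATAC lists held open and acetylated regions more often than open only ones, with 58.4 against 45.4% in 501mel, 46.4 against 29.8% in SKMEL-5 and 77.7 against 65.8% in SKMEL-147. All 3 lines listed 37.9% of open and acetylated and 22.5% of open only regions. Acetylated only regions were listed as open in 4.30, 1.02 and 6.91%, and in 89.7% (89.5 to 89.9) none of the 3 lines had an ATAC region there. The K27ac lists of 501mel, SKMEL-5 and SKMEL-147 held 23.2, 41.5 and 36.4% of open and acetylated, 3.88, 9.46 and 8.76% of open only and 13.0, 8.45 and 13.1% of acetylated only regions. All these lists differ in length and width, so the shares do not compare libraries with each other. Between classes within a library, they are subject to the differences in class width given above.

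CTCF, which anchors chromatin loops, was listed in 501mel or SKMEL-5 at 31.8% of open and acetylated and 31.8% of open only regions, against 2.73% of acetylated only regions. The equal totals joined opposite patterns. Near gene starts CTCF lay at 44.8% (501mel) and 51.3% (SKMEL-5) of open and acetylated regions, more than the 26.6 and 34.5% of open only ones. In genes away from starts it lay at 18.7 and 18.8% of open and acetylated and at 24.4 and 29.6% of open only regions, and within 50 kb of a gene at 21.4 and 22.5% against 30.1 and 36.3%. No CTCF library of A375 was used here. HOXD13-HA was listed at 11.2% of open and acetylated, 6.45% of open only and 1.81% of acetylated only regions.

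**Figure D3:**
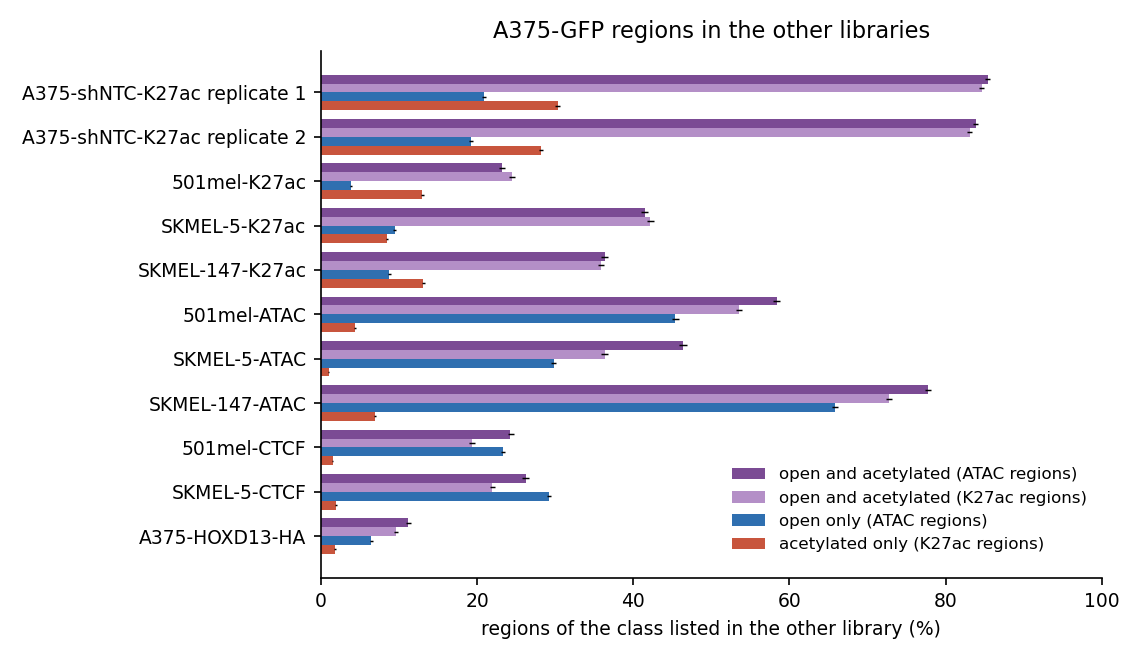
Share of each A375-GFP class (x axis, percent of its regions) that overlaps a region listed in each other library (y axis) by at least 1 bp; bars are shares and thin lines 95% Wilson intervals. In shNTC replicate 1, 85.4% of open and acetylated ATAC regions, 20.9% of open only and 30.3% of acetylated only regions are listed.

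Made in the same way in the other lines, the acetylated share of ATAC regions was 37.3% in A375-GFP, 18.5% in 501mel, 41.3% in SKMEL-5 and 19.1% in SKMEL-147. The open share of K27ac regions was 36.0, 32.9, 51.2 and 50.1%. The A375-GFP K27ac list was the longest of the 4. With every list held to its 42115 strongest regions, the acetylated share was 43.5, 25.6, 47.3 and 39.3%, and the open share 50.6, 27.4, 45.4 and 40.7%. A375-GFP then had the highest open share among the 4 lines, where it had the third highest before. With 1 library a line, no difference between lines was tested.

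The strongest single regions give the classes names. The highest authors' fold among open and acetylated K27ac regions was 105, in a 28055 bp region over SPRY4 (chromosome 5, 142300481 to 142328535), which held 6 ATAC regions. SPRY4 encodes a Sprouty protein, a feedback inhibitor of the MAPK pathway. The next was 101 over SOX10 and POLR2F (chromosome 22, 37972261 to 37988120). SOX10 is the neural crest factor that maintains the melanocyte lineage. LRATD2 (97.2), SPRY2 (91.5), FLCN (87.8), SLBP (87.5), CDKN1B with GPR19 (83.3), BRAT1 (83.1) and SELENOW (81.9) were also among the first 10. Of the 10, 6 lay near a gene start, beside 25.5% of all open and acetylated K27ac regions. All 10 were listed in both shNTC replicates, beside 80.8% of that class. The ATAC lists of all 3 other lines held 9 and their K27ac lists 9, beside 29.3 and 10.5%. Widths among the 10 ran from 826 to 28055 bp against a class median of 798 bp, and a wider region overlaps another more easily.

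The widest K27ac region ran over 36254 bp of WWTR1 (chromosome 3, 149625032 to 149661285) and held 8 ATAC regions. WWTR1 encodes TAZ, which with YAP1 carries Hippo pathway signals to the TEAD factors. The SPRY4 region came next, and then 24431 bp in SOX5, a SOX factor of the neural crest, 625035 bp from the nearest start. The others of the 10 widest, of 19251 to 21121 bp, lay in ZCCHC24, KIRREL3, POLR2F, FXYD3 with LGI4, CDC42EP3, an uncharacterised gene of chromosome 22 and BCAR3. KIRREL3, whose open only start is printed above, had one of these regions in its body, 21099 bp at chromosome 11, 126417998 to 126439096. It lay far downstream of that start and just past the end of ST3GAL4 at 126414638. The start of ST3GAL4 was open and acetylated, and its window held 100 kb of K27ac. Which gene the region belongs to was not tested. HOXD13-HA lay in 6 of the 10, beside 9.58% of all open and acetylated K27ac regions, whose median width was 798 bp. A wider region overlaps another more easily, and the part of width in this count was not tested.

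The strongest acetylated only regions bordered on open sites. The highest fold was 36.4 in COG4 (chromosome 16, 70483294 to 70485100), a Golgi transport subunit, with the nearest ATAC region 351 bp away. NFATC2 (30.7), ARID5B (27.4), HS3ST1 (26.3), ADAM22 (24.8), CARHSP1 (23.5), FOXD3 (23.5) and LYZL1 (22.7) were the nearest genes of others among the first 10, at 36 to 323 bp from ATAC. Of the 10, 9 lay within 1 kb of an ATAC region, beside 25.5% of all acetylated only regions. The exception, 21.9 near IER3, was 10367 bp away and lies in the MHC, where the ATAC list is thin as described below. All 10 were in both shNTC replicates, beside 23.8% of all acetylated only regions and 62.5% of the strongest of their 10 classes. Open in none of the other 3 lines were 8 of the 10, beside 89.7% of all acetylated only regions.

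The strongest open only regions were mostly far from A375-GFP acetylation and listed as open elsewhere too. Regions in repeated or artefact-prone sequence were not removed here. Whether any of these regions is such a signal, which could recur in every library, was not tested. The highest fold in the whole ATAC list, 29.1, was an open only region of 313 bp in HFM1 (chromosome 1, 91387236 to 91387548), a meiotic helicase gene, 17132 bp from K27ac. LEUTX (25.9), PROS1 (24.8, at 402264 bp from the gene), NME7 (24.4), an uncharacterised gene of chromosome 10 (23.3), SLITRK1 (23.0), ZNF549 (23.0), NEMP2 (22.6), VEGFC (22.5, at 195267 bp) and SPATA31A1 (22.5) were the nearest genes of the others. Only the region of ZNF549, a KRAB zinc finger gene, was near a start, and NEMP2 and VEGFC had K27ac within 1 kb, at 261 and 442 bp. Of the 10, 7 were open in all 3 other lines, beside 22.5% of all open only regions. None was acetylated in all 3, which only 0.590% of the class was. Both shNTC replicates listed 4 of the 10 as acetylated, that of ZNF549 included, beside 17.0% of the class. In neither replicate were 5, beside 76.8%.

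**Figure D4:**
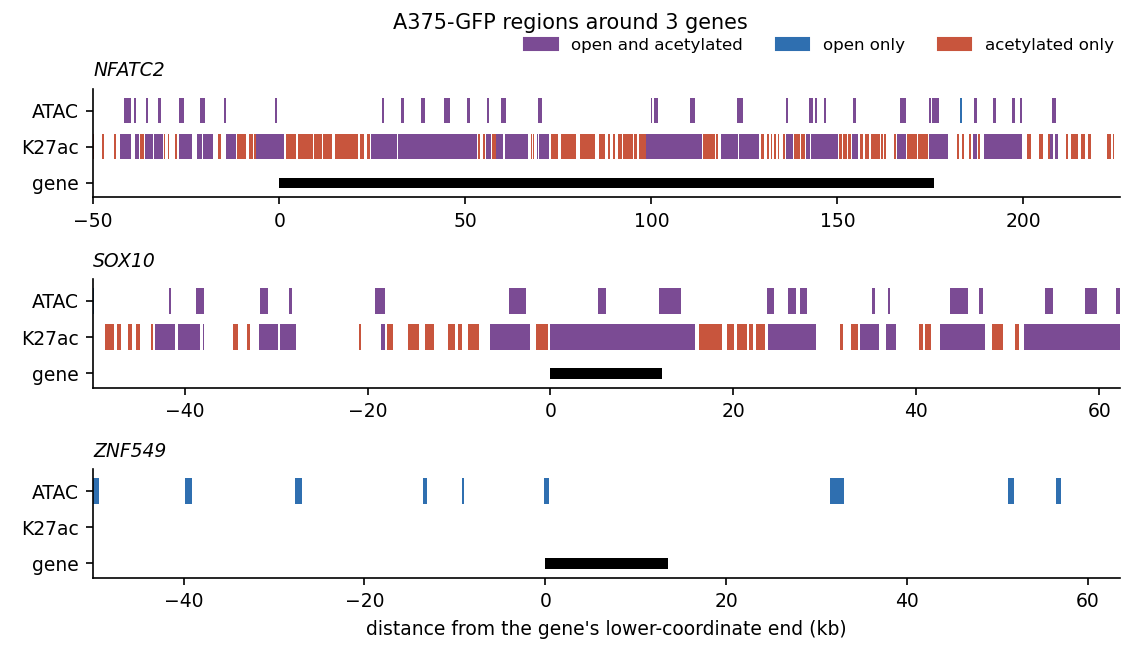
A375-GFP ATAC and K27ac regions in and within 50 kb of NFATC2, SOX10 and ZNF549 (x axis, distance from the lower-coordinate end of the gene in kb; bars are regions, coloured by class, and the black bar is the gene). NFATC2 has 30 open and 69 acetylated only K27ac regions, and ZNF549 has 9 ATAC regions and no K27ac region. In both shNTC replicates, the ATAC region at the ZNF549 start overlaps a K27ac region.

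Genes were ranked by the length of K27ac within the gene and 50 kb on both sides. K27ac was present for 16897 of 19974 genes (84.6%) and ATAC for 19636 (98.3%). The median K27ac length was 6.07 kb (quartiles 1.19 and 16.7) and the median ATAC length 6.31 kb. There were 2751 genes with ATAC and no K27ac, 12 with K27ac and no ATAC, and 326 with neither. Across the 19974 genes, the Spearman correlation of the K27ac length was 0.760 with the ATAC length in the same window and 0.117 with the window's own length. With the K27ac length in shNTC it was 0.904 and 0.901, and with that in 501mel, SKMEL-5 and SKMEL-147 0.582, 0.647 and 0.550. Neighbouring genes share regions, so these are descriptions over genes that are not independent.

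The 20 leading genes lay in 20 separate loci. SH3PXD2A, which encodes the invadopodia scaffold TKS5, led with 234 kb of K27ac in a window of 362 kb, against 148 and 135 kb in the shNTC replicates. NFATC2, a calcineurin-dependent transcription factor, followed with 207 kb, against 89.1 and 86.0 kb. IGF1R, the receptor of insulin-like growth factor, had 200 kb, against 102 and 99.4 kb, and ZMIZ1, a transcriptional coactivator, 190 kb, against 123 and 114 kb. HIVEP3 (172 kb), CDH13 (168 kb) and SOX5 (154 kb) came next, with 85.0, 80.6 and 140 kb in shNTC replicate 1. The basement membrane collagen COL4A2 had 146 kb, against 47.6 and 45.3 kb in shNTC, where its best rank was 355. FARP1 (145 kb), GRAMD1B (143 kb), HIPK2 (140 kb), BCAR3 (138 kb), WWTR1 (137 kb), SEPTIN9 (135 kb), RAI1 (135 kb) and SPTBN1 (132 kb) followed. MPRIP (128 kb), SYN3 (126 kb), STARD13 (125 kb) and SMAD3 (124 kb), the TGF-beta signal carrier, closed the 20, and GALNT2, just outside, also had 124 kb.

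In 19 of the 20 genes the length was greater in A375-GFP than in both shNTC replicates, the exception being WWTR1 with 144 and 142 kb. In all 20 it was greater than in the 3 other lines. The ranking was made in A375-GFP, so its leaders are high there by choice, and its K27ac list is the longest. Each shNTC replicate shared 10 of the 20 with its own first 20, 501mel and SKMEL-5 shared 2 each and SKMEL-147 1. IGF1R had 135 kb in 501mel, and NFATC2, CDH13 and SMAD3 had no K27ac there.

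Much of this length was not open. In the 20 genes a median of 46.1% of the K27ac length was in acetylated only regions, from 22.4% in WWTR1 to 67.3% in COL4A2, beside a median of 40.4% over all genes with K27ac. Counting only K27ac regions that overlap ATAC, an alternative added after the data were seen, kept 13 of the 20 among the first 20. SH3PXD2A stayed first with 125 kb, and COL4A2 went to rank 81. Per kb of window the order changed more, and 3 of the 20 remained, NFATC2 with 750, SH3PXD2A with 649 and RAI1 with 586 bp of K27ac per kb. Of the 20 genes, 15 had an open and acetylated start, beside 53.1% of all genes with a listed start, and the other 5 have no start in the table. The genes were taken by K27ac length from the same list, so an acetylated start is in part given by that choice.

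The gene lists are read against the median of 6.07 kb and the 84.6% of all genes with K27ac. Counts of starts are read against all 15812 genes with a listed start, of which 53.1% were open and acetylated, 22.7% open only and 22.7% without either mark. Melanoma lines differ in how far they keep pigment cell genes or have moved to an invasive state. Among 24 genes of undifferentiated and invasive melanoma, 23 had K27ac and the median was 19.4 kb. TEAD1, the DNA-binding partner of YAP1 and TAZ, had 68.7 kb, the matrix protein TNC 67.1 kb, the AP-1 subunit FOSL1 52.5 kb and the receptor kinase AXL 42.5 kb. Of the 24, 18 lay above the median of all genes. SOX2 (3.55 kb), ZEB1 (3.49 kb), FN1 (2.84 kb), TWIST1 (1.12 kb) and CCN2 (0.717 kb) lay below it. TEAD1, FN1, TWIST1 and CCN2 had more in 501mel (84.8, 14.9, 19.3 and 2.09 kb), and no other member did. SOX9 had 7 ATAC regions and no K27ac, here and in both shNTC replicates. The same list had medians of 15.9 and 16.4 kb in shNTC, 1.56 kb in 501mel, 2.85 kb in SKMEL-5 and 9.99 kb in SKMEL-147.

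Among 20 melanocytic genes 19 had K27ac, with a median of 7.18 kb. SOX10 had 72.8 kb, the receptor ERBB3 44.8 kb, MITF, the master regulator of pigment cells, 34.4 kb and the melanocortin receptor MC1R 21.6 kb. Pigment genes differed among themselves, with 19.7 kb at PMEL, 8.51 kb at DCT, 2.81 kb at TYR, 0.703 kb at TYRP1 and 0.565 kb at the antigen MLANA. The regulator PAX3 had 5.86 kb. KIT had 7 ATAC regions and no K27ac in A375-GFP, 0.648 and 0.751 kb in shNTC and 45.5 kb in 501mel. The list had medians of 8.25 and 8.48 kb in shNTC, 20.9 kb in 501mel, 21.4 kb in SKMEL-5 and 3.49 kb in SKMEL-147. Of its 15 genes with a listed start, 6 were open and acetylated, 2 open only and 7 had neither mark.

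All 17 MAPK feedback genes had K27ac, with a median of 21.7 kb, and all 11 with a listed start were open and acetylated, beside 53.1% of all genes. SPRY4 had 63.0 kb with 14 of its 16 ATAC regions acetylated, SPRED2 54.4 kb, PHLDA1 44.1 kb and the receptor EPHA2 42.2 kb. The list had 23.4 and 23.1 kb in shNTC, 7.35 kb in 501mel, 17.3 kb in SKMEL-5 and 7.28 kb in SKMEL-147. DUSP6, the phosphatase of ERK, had 27.9 kb with all 9 of its ATAC regions acetylated. SPRY1 was the lowest with 2.76 kb.

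Drivers and cell cycle genes had K27ac in 16 of 16, with a median of 11.3 kb. The cyclin-dependent kinase CDK6 had 101 kb (rank 48) and 24 of 33 ATAC regions acetylated, the survival factors MCL1 and BCL2L1 47.5 and 40.8 kb, and MAP2K1 26.0 kb. TERT, which encodes the telomerase enzyme, had 17 ATAC regions of which 1 was acetylated, and 2.82 kb of K27ac. Housekeeping genes had K27ac in 15 of 15, with a median of 11.7 kb and RPLP0 (56.0 kb), GAPDH (47.5 kb) and TUBB (38.5 kb) among the leaders. TUBB lies in the MHC.

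Angiogenesis genes all had K27ac, 25 of 25, with a median of 12.4 kb. VEGFB had 42.3 kb behind an open only start, the semaphorin receptor NRP2 41.0 kb, ENG 38.6 kb and HIF1A 28.9 kb. VEGFA had 6.82 kb, with 3 of 11 ATAC regions acetylated. Of the 19 genes with a listed start, 10 were open and acetylated, close to the 53.1% of all genes, 7 were open only and 2 had neither mark.

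Of 15 immune checkpoint and suppressive genes 14 had K27ac, with a median of 6.48 kb. The adenosine receptor ADORA2B had 31.0 kb, TGFB1 30.8 kb, NT5E, which makes adenosine, 23.6 kb and the IL10 window 18.3 kb. CD274, which encodes PD-L1, had 2.13 kb against 7.33 and 6.81 kb in shNTC and 20.4 kb in SKMEL-147, and LGALS9 had 7 ATAC regions and no K27ac.

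Antigen presentation genes had K27ac in 18 of 19, with a median of 7.59 kb. CIITA, the class II transactivator, had 42.7 kb against 16.0 and 15.7 kb in shNTC, followed by PSMB10 (32.9 kb), CALR (28.6 kb) and TAPBPL (24.3 kb). HLA-B had no K27ac and HLA-C 1.67 kb. The HLA, TAP1, TAP2, TAPBP, PSMB8 and PSMB9 genes of this list lie in the MHC, where the lists were not alike. The A375-GFP ATAC list gave 2747 regions on alternative copies of genome sequences, 876 of them copies of chromosome 6, where the K27ac list had none. In the MHC, 28 to 34 Mb of chromosome 6, there were 1.85 K27ac regions per ATAC region and 29.5% of K27ac regions were open, against 0.867 and 51.8% on the remainder of the chromosome. Missing ATAC at HLA genes therefore cannot be read as closed chromatin. The shNTC lists carry alternative copies too, and at TUBB, IER3 and TAPBP of the MHC they held 4.55, 7.67 and 3.52 kb of K27ac in replicate 1 against 38.5, 39.9 and 23.2 kb in A375-GFP. The part of the copies in these differences was not tested.

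Markers of 4 other cell types had medians below the 6.07 kb of all genes, and endothelial markers did not. Keratinocyte genes had K27ac in 7 of 12 with a median of 1.39 kb. SFN had 23.1 kb, KRT10 5.50 kb, KRT14 4.65 kb and KRT17 4.31 kb, and KRT1, DSG3 and DSG1 had none. T cell genes had it in 12 of 12 with a median of 2.50 kb, led by LCK (34.8 kb), CD4 (29.9 kb), CD5 (10.7 kb) and CD3G (5.33 kb). Fibroblast genes had it in 10 of 12 with 2.22 kb, led by COL1A1 (26.6 kb), ACTA2 (15.8 kb), FBLN1 (4.50 kb) and COL3A1 (3.83 kb), and POSTN and PDPN had none. Hepatocyte genes had it in 9 of 12 with 2.72 kb, led by APOA1 (12.1 kb), HNF4A (9.52 kb), TF (8.33 kb) and TTR (7.56 kb), and ALB, CYP3A4 and F9 had none. Endothelial genes stood higher, 12 of 12 with 7.37 kb, led by PLVAP (24.0 kb), TIE1 (23.2 kb), TEK (13.1 kb) and PECAM1 (11.3 kb). The windows of 50 kb take in neighbouring genes, so K27ac within reach of a marker is not acetylation of the marker itself. The starts of PLVAP, TIE1 and TEK had neither mark.

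**Figure D5:**
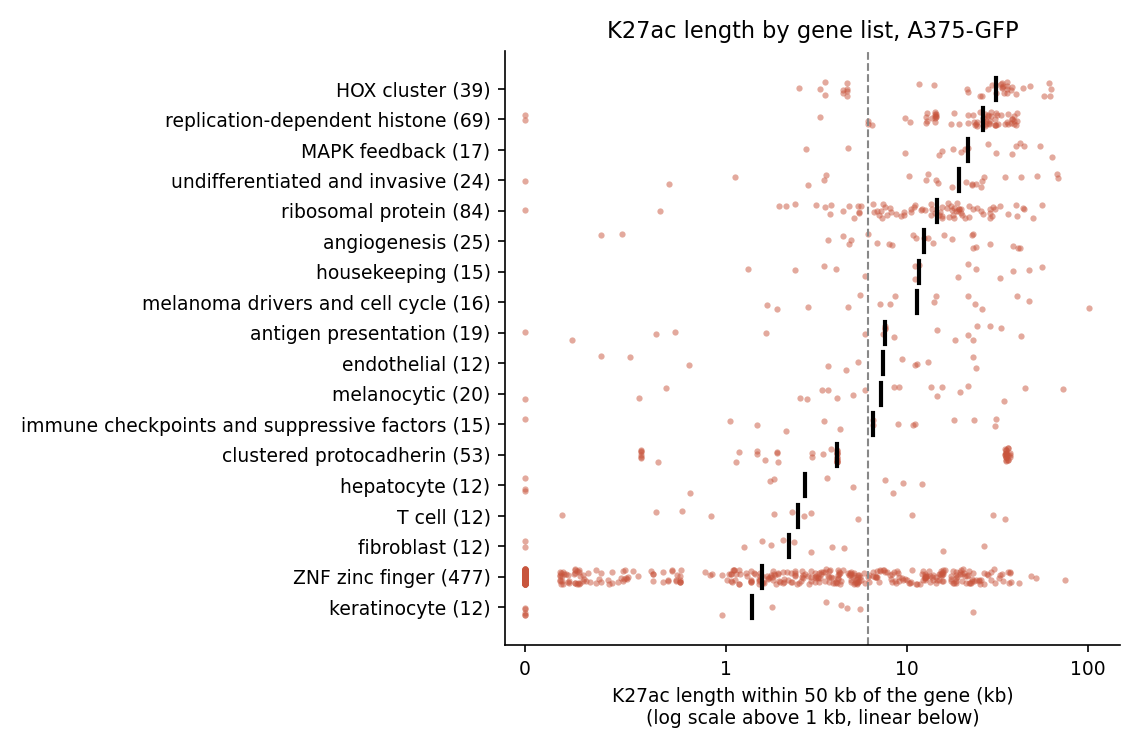
K27ac length within 50 kb of each gene in A375-GFP (x axis, kb, log scale above 1 kb and linear below) for 18 gene lists (y axis, number of genes in brackets). Points are genes, thick lines the medians and the dashed line the median of all protein-coding genes, 6.07 kb; undifferentiated and MAPK feedback genes lie mostly to its right and keratinocyte genes mostly to its left.

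Gene starts as a whole were open and acetylated in 53.1% (52.3 to 53.9) of the 15812 genes with a listed start, open only in 22.7% (22.0 to 23.3), acetylated only in 1.61% (1.42 to 1.81) and without either mark in 22.7%. The median K27ac length within 50 kb was 12.5 kb behind open and acetylated starts, 2.52 kb behind open only ones, 17.9 kb behind acetylated only ones and 0.746 kb with neither. Acetylated only starts were thus rare and stood in strongly acetylated surroundings. In 92.0% of the genes a listed start lies within 1 kb of the upstream end of the annotated gene, and in 81.1% (75.8 to 85.4) of the acetylated only ones. Leading genes of this state include starts deep in the gene, such as that of NOS1AP, 293292 bp from the upstream end. When a region had to cover the start itself, 22.5% of genes were open and acetylated and 48.1% open only, so the mark lay mostly beside the start and the open region on it.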

How the data were processed

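Regions were the narrow peaks deposited by the authors for A375-GFP ATAC and K27ac, with Trim Galore, Bowtie2, SAMtools, MACS2, deepTools and hg38 named without versions in the submitters' processing notes. Each deposited list gives a score, 10 times the −log10 q for nearly every region, a fold (the ratio of summit height to background), a −log10 p and a −log10 q, all computed by the authors and used here only to describe, rank and filter within a list. The lowest −log10 q was 1.30. No counts are given, so depth is unknown. Of 121664 ATAC regions, 2747 on alternative copies, 94 on Y and 519 others were left out, and of 139985 K27ac regions none. No list of artefact-prone regions was applied here. The 6 samples without region lists and the shH2 and shH3 libraries were not used here.

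Overlap was at least 1 bp. Genes were 19974 RefSeq protein-coding genes (GRCh38.p14); coordinates of regions are those of the files. Without a genome, exons and introns were not told apart and regions were not read as sequence. Near a start meant a midpoint within 2 kb, the state of a start used 1 kb, and gene windows 50 kb. With 1 library per mark nothing was tested. Shares carry 95% Wilson intervals. Tables were made with Python 3.11.15, numpy 2.4.6, pandas 2.3.3 and statsmodels 0.14.6, and the interval functions were tested on simulated regions. The classes, genes and lists were chosen with earlier results of these data known. Named were the 20 longest genes, 4 members with the most and up to 3 with no K27ac per list, the 10 regions of highest fold per class, the 10 widest K27ac regions and leading starts per state; some of these are not reported here. The genes TYR, TYRP1, DCT, MLANA, PMEL and PAX3, and DUSP6, SPRY1, TERT, VEGFA, CD274, HLA-C, TUBB, IER3 and TAPBP in their lists, were named after their values were seen. So were SOX2, ZEB1, FN1, TWIST1, CCN2 and ST3GAL4. Alternatives were stricter and equally long lists, other overlaps, distances, windows and start rules.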

Additional observations from a re-analysis of the deposited data

How the results depend on the processing

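The acetylated share of ATAC and the open share of K27ac regions, 37.3 and 36.0%, became 25.0 and 75.5% with −log10 q of at least 10, 34.8 and 39.1% with lists of equal length, 30.1 and 25.9% when the overlap had to reach 0.5 of the shorter region, 28.6 and 26.5% with 500 bp windows at the summits and 41.5 and 45.6% with gaps of up to 500 bp. They kept their values without the MHC. The share near a start of open and acetylated, open only and acetylated only regions (23.0, 9.35 and 6.79%) became 20.5, 7.37 and 2.52% within 1 kb and 28, 13.8 and 17.8% within 5 kb. The first 2 became 28.7 and 14.5% with −log10 q of at least 10, and the first 23.9% with lists of equal length. Of the 20 leading genes, 14 to 19 remained under other thresholds, list lengths and windows, 13 when only open K27ac regions counted and 3 per kb of window. Starts open and acetylated, open only, acetylated only and with neither mark (53.1, 22.7, 1.61 and 22.7%) became 32.3, 39.0, 0.683 and 28% with −log10 q of at least 10, 22.5, 48.1, 1.26 and 28.2% when a region had to cover the start, 55.7, 23.5, 1.47 and 19.3% within 2 kb, 51.6, 24.2, 1.50 and 22.8% with lists of equal length, and 54.1, 22.4, 1.42 and 22.1% over genes with a start at the gene's upstream end. With all lists held to 42115 regions, the acetylated shares were 43.5% (A375-GFP), 25.6% (501mel), 47.3% (SKMEL-5) and 39.3% (SKMEL-147), and the open shares 50.6, 27.4, 45.4 and 40.7%. The cause of these changes was not tested. The gene body densities kept a ratio of 6.19 to 8.00. Members of lists with K27ac stayed within 1.5 times, except fibroblast genes (5 with −log10 q of at least 10) and olfactory receptors (43 with −log10 q of at least 10, 20 and 146 with windows of 10 and 100 kb). The open K27ac ranking, the rules on the start's acetylation and upstream end, and the gene body alternatives were chosen after seeing the data. No paired analysis was possible because A375-GFP has 1 library per mark. Depth is unknown, and an unlisted region may be below the caller's threshold.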

Other observations

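Gene families differed in how the marks met at their starts. Among 84 ribosomal protein genes, 83 had K27ac within 50 kb with a median of 14.7 kb, and 66 of 67 listed starts were open and acetylated, beside 53.1% of all genes. RPLP0 (56.0 kb), RPL41 (49.4 kb), RPL23A (44.6 kb) and RPL29 (43.6 kb) led, and the copy RPL10L had none. Replication-dependent histone genes, 55 of 69 of them on chromosome 6, had a median of 26.2 kb, and 52 of 64 listed starts were open and acetylated. H4C5 (40.6 kb), H4C4 (40.4 kb), H2BC7 (39.8 kb) and H3C4 (39.2 kb) led, and H2AC1 and H2BC1 had none. All 39 HOX cluster genes, which sit in 4 loci, had K27ac with a median of 31.1 kb, led by HOXB3 (62.4 kb), HOXB5 (61.5 kb), HOXB4 (60.9 kb) and HOXB6 (57.0 kb). The HOX median was 25.3 and 25.4 kb in shNTC, 3.19 kb in 501mel, 7.10 kb in SKMEL-5 and 1.75 kb in SKMEL-147.

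Zinc finger genes named ZNF were often open without the mark. Of 477, 476 had ATAC and 349 had K27ac within 50 kb, the median was 1.57 kb, and 218 of 405 listed starts were open and acetylated and 168 open only, beside 53.1 and 22.7% of all genes. ZNF362 (74.3 kb), ZNF609 (51.8 kb), ZNF687 (48.2 kb) and ZNF526 (41.7 kb) had the most, and ZNF648, ZNF662 and ZNF717 had none. Clustered protocadherins, 53 genes in 1 locus, had 25 open only, 11 open and acetylated and 11 unmarked starts among 47, with PCDHGA1, PCDHGA2 and PCDHGA3 sharing 36.9 kb of K27ac and PCDHGB1 at 36.3 kb. Olfactory receptor genes were mostly unmarked. Of 390, 93 had K27ac and 277 had ATAC within 50 kb, 298 of 312 listed starts had neither mark, OR13J1 (14.8 kb), OR2S2 (12.9 kb), OR2B2 (10.6 kb) and OR1I1 (10.4 kb) had the most K27ac, and OR4F5, OR4F29 and OR4F16 had none.

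Chromosomes differed in the balance of the marks. K27ac regions per ATAC region ran from 0.600 on X, 0.717 on 21 and 0.724 on 18 to 1.50 on 20 and 1.75 on 17. The acetylated share of ATAC regions ran from 24.6% on X and 25.1% on 21 to 44.1% on 17. Per kb of window, NFATC2 (750 bp) was followed by LYL1, SH3PXD2A (649 bp) and SOX10 (648 bp).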
